A study of Mus musculus with 54 samples.

Results

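The regions described here are the ChIP-seq peaks of 42 KRAB-zinc finger proteins (KZFPs) that lay inside 3 KZFP gene clusters of the mouse genome, which are called the Chr4, Chr2 and Chr12 clusters. On the GRCm39 assembly they span chr4:145041735-147945231, chr2:174625836-177760767 and chr12:17841965-24548357. A peak was a member when its summit, the base with the highest signal, lay between these ends. By this rule 249 of the 25012 deposited peaks were members, with 51 in the Chr4 cluster, 26 in the Chr2 cluster and 172 in the Chr12 cluster.

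The host of every construct was F9, an established line of mouse embryonal carcinoma cells. Each culture was transfected with a plasmid and a transposase, selected with puromycin, and over-expressed 1 KZFP with an HA tag, and the bound DNA was recovered with an antibody against the tag. There was 1 library for each KZFP, spread over 5 batches, and each batch had its own mixed input. The KZFPs are coded in the Chr4 cluster of C57BL/6J (BL6J) mice, so the Chr4 cluster is the locus that codes for the proteins and the Chr2 and Chr12 clusters are other KZFP gene loci. All proteins were over-expressed, so a peak here is a place that the tagged protein reached at that dose. The lists hold peaks only. They give no read totals and no expression, so the depth behind each list and the identity of the cells could not be checked from them.

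KZFPs bind DNA through an array of C2H2 zinc fingers, in which a few amino acids of each finger touch the bases, and these contact residues form the fingerprint array. Their KRAB domain recruits the co-repressor KAP1 (TRIM28), which brings heterochromatin to the bound place, and most KZFPs bind transposable elements. KZFP genes arise by duplication and stay side by side in clusters, so a cluster is itself made of repeated sequence. Several of the proteins profiled have the same fingerprint array: Zfp6001, Zfp6003 and Zfp_MB035 share an array, and so do Zfp992, Zfp993, Zfp_MB024, Zfp_MB027, Zfp_MB029 and Zfp_MB031.

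Since the clusters are repeats of themselves, the sequences carry much of what the peaks show, and 4 sets of copies follow. Each set was found by aligning 400 bp around the highest peak of a KZFP to the 3 clusters (at least 300 bp at 80% identity or more), and the stretch around the motifs was read from GRCm39 in each copy. Motifs are those the study derived from the peak lists, were looked for in either orientation with every letter required, and are a description of the letters, not of a site in use. Substitutions are counted from 1 at the 5′ end of the printed stretch, with the base of the copy with the highest peak first. Not every form of a stretch is printed.

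The first set is the stretch under the highest peak of Zfp6002, which recurs in 11 copies. It is shown because 5 KZFPs have peaks on the same copies. Capitals mark the motif of Zfp6001 (TTATAGAGATCAG), which the motif of Zfp6003 overlaps, and then that of Zfp6002. In windows of 200 bp around all 24975 summits on chromosomes, the motif of Zfp6001 was in 0.601% and that of Zfp6002 in 0.785%.
chr12:19593481-19593527, plus strand (identical at chr12:20178625-20178671, plus strand): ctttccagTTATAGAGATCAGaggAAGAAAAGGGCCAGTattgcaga
chr12:22731607-22731653, minus strand (identical at chr12:24077425-24077471, minus strand; G24A): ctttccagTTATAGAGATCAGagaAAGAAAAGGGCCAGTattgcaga
chr12:20833320-20833366, plus strand (identical at chr12:21695146-21695192, minus strand; G32A): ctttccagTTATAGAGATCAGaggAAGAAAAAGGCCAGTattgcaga
chr12:22157712-22157758, minus strand (identical at chr12:23316696-23316742, minus strand; G8C T10C G16A G32A): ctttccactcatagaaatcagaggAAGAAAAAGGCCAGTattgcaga
chr12:18228121-18228162, plus strand, no peak: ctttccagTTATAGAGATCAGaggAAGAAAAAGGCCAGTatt
chr12:20283127-20283173, plus strand, no peak: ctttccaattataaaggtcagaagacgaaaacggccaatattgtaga
chr4:146418190-146418236, minus strand, no peak: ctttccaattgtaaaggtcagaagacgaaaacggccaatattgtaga

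The second set is the stretch under the highest peak of Zfp_MB029, which recurs in 10 copies and is the place where most KZFPs met. Capitals mark the motif of Zfp_MB031 (TTGCACAGCAGAA) and, where they run on, the overlapping motif of Zfp_MB029 (AGTTTCTGCTGTG, read on the other strand). Of all summit windows, 1.55% held the first and 1.62% the second. The copies at chr12:19638817 and chr12:20228628 have a shorter stretch of 36 bp with neither motif and are not printed. At 19638817 there was no peak, and at 20228628 only Zfp981 had one (5.8).
chr12:24422648-24422691, plus strand: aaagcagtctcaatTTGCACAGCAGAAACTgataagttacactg
chr12:20879269-20879312, minus strand (C9T A41G): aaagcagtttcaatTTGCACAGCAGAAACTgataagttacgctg
chr12:18425029-18425072, minus strand (A13G C29A): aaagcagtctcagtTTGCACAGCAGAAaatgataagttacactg
chr4:145561694-145561737, minus strand (A3G C20T G25A; identical at 146260602, 146557695 and 147270219): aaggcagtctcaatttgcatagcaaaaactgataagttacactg
chr2:174997574-174997616, minus strand, no peak: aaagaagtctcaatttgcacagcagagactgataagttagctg

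The third set is the stretch under the highest peak of Zfp_MB026, with 15 copies spread over the 3 clusters. Capitals mark the motif of Zfp_MB026 (ATATGGAATGGAGAG), which was in 3.93% of all summit windows.
chr2:176929274-176929312, plus strand (identical at chr2:177239472, chr12:18011268 and chr12:18181706): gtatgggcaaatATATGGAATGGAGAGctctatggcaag
chr12:22093433-22093471, plus strand (identical at 23252301; G7A G18A G39A): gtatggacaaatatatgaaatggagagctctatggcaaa
chr12:24446935-24446973, plus strand (T29G A32T A38C; 6 copies): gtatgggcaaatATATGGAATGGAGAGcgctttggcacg
chr2:176849875-176849913, plus strand, no peak (G25A T29G A32T A38C): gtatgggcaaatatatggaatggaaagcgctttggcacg

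The fourth set is the stretch under the highest peak of Zfp_MB028, with 25 copies. Capitals mark the motif of Zfp_MB028 (AATGGACCAGC, read on the other strand), which was in 4.15% of all summit windows.
chr4:147552691-147552729, plus strand (8 copies with this stretch): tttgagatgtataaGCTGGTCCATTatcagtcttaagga
chr2:176932995-176933033, minus strand (identical at 177243190; C16T): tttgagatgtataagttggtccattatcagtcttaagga
chr12:19866097-19866135, plus strand, no peak (G15A): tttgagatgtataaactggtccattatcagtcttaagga
chr12:19104587-19104625, minus strand, no peak (T8G A11G A26G A29T; 4 copies): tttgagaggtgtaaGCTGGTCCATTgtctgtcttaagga

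Several limits apply to every copy named below. The authors kept 1 of equally good alignments at random, so reads from identical copies are spread among them and a peak at such a copy may belong to another. They also removed peaks that overlapped a peak of an empty vector control. A copy without a peak is therefore not shown to be unbound. The clusters differ between mouse strains, F9 cells do not come from BL6J, and how the clusters of F9 cells are arranged was not tested. A fold enrichment is relative to the mixed input of its batch and is not on 1 scale between batches.

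The Chr12 and Chr4 clusters held more peaks for their length than the assembly as a whole, and the Chr2 cluster did not. The 172 peaks of the Chr12 cluster gave 25.6 peaks per Mb of sequence outside assembly gaps, the 51 of the Chr4 cluster gave 21.5 and the 26 of the Chr2 cluster gave 9.01. These are 2.72, 2.28 and 0.956 times the share that the length of each cluster would hold of 24975 peaks on chromosomes. Together the members were 0.997% of those peaks in 0.452% of the sequence, a ratio of 2.21, given as a description with no test of placement. The Chr4 cluster has 5 gaps of 526000 bp in all and the Chr2 cluster 5 gaps of 250000 bp, where no peak can be called, and the Chr12 cluster has none. These are lengths in the assembly, not of the sequence that is missing. The paper found the BL6J Chr4 cluster to be much larger than in GRCm39. It also warns that reads from missing sequence can pile up artificially on similar sequence that is present. How far this changes the Chr4 densities, folds and positions was not tested. The member nearest to a gap was 12598 bp from it on Chr4 and 26297 bp on Chr2. Next to the ends, the outermost Chr12 member was a Zfp_MB035 peak (fold 19.6) 6671 bp inside the start, and the closest peak left out was a Zfp_MB016 peak (fold 22.5) 8136 bp beyond the end of the Chr4 cluster.

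**Figure D1:**
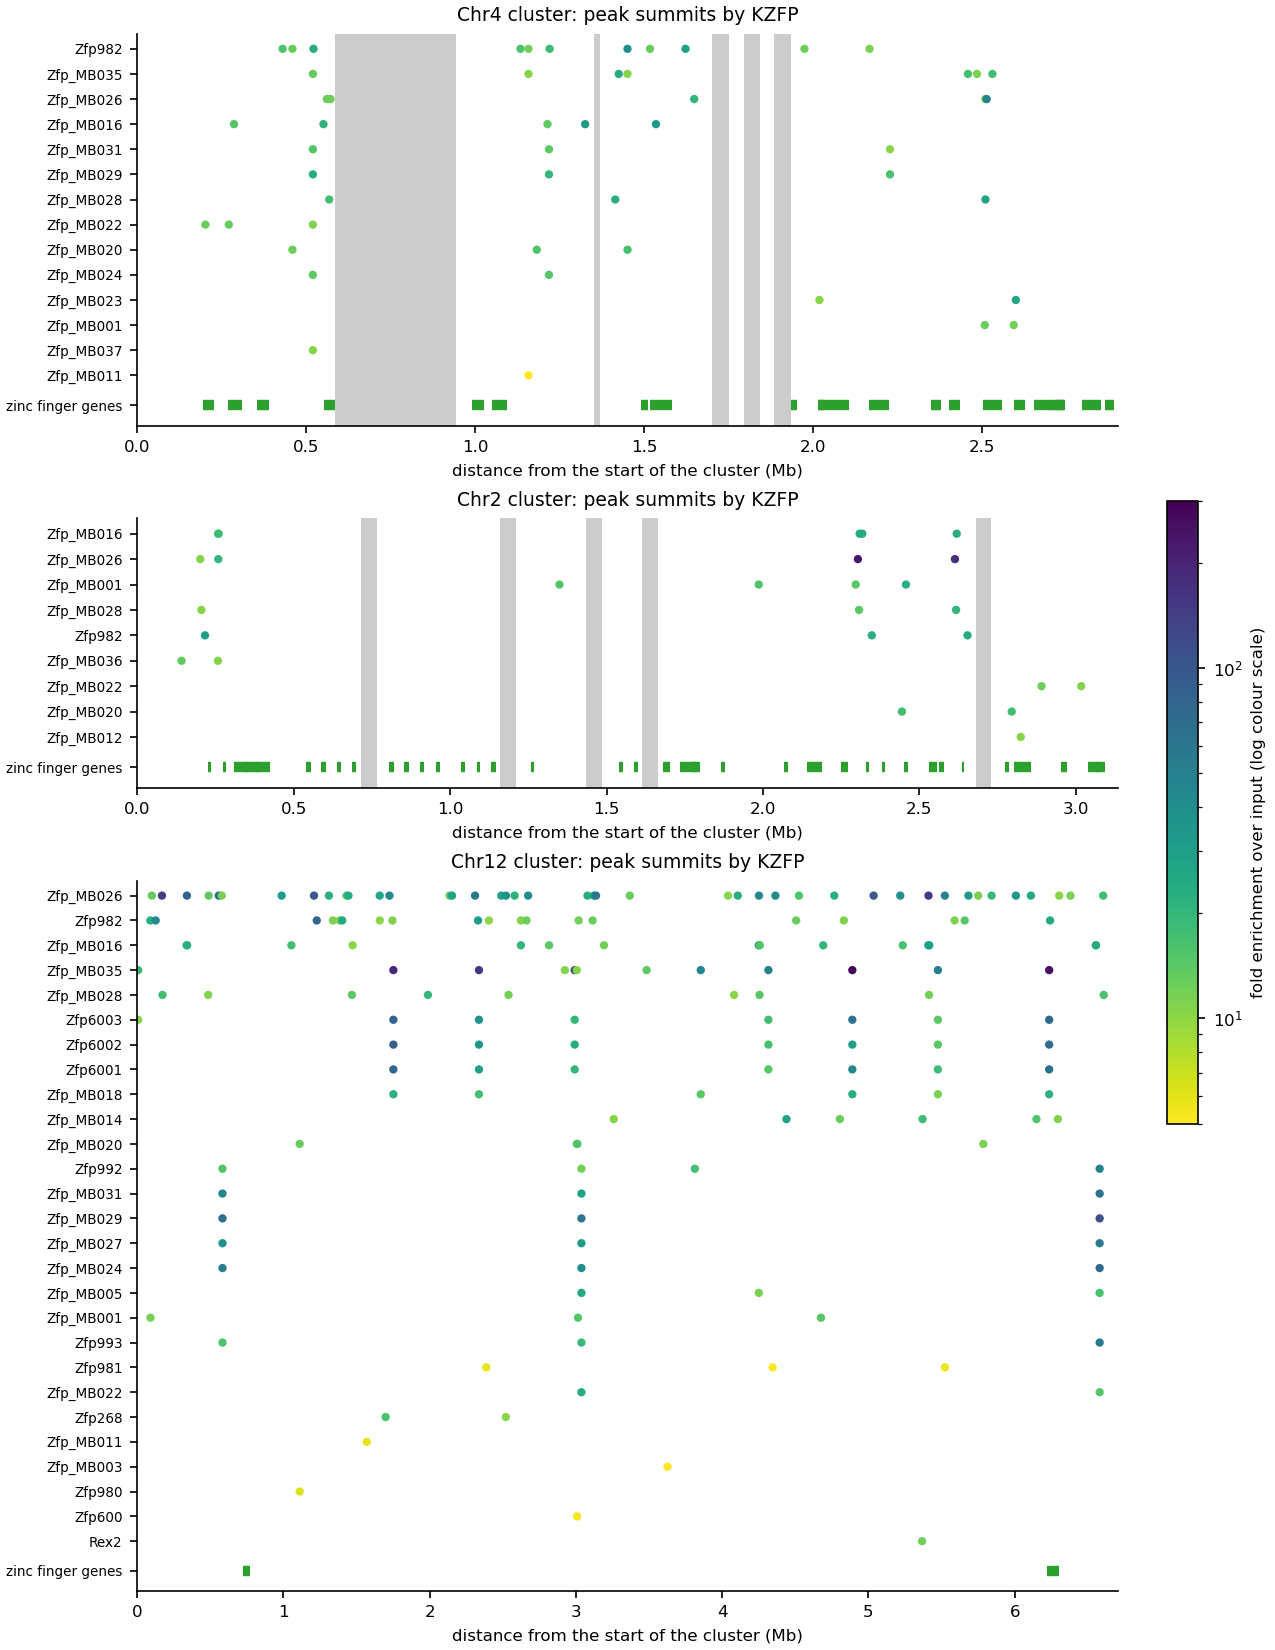
Position of the 249 peak summits in the Chr4, Chr2 and Chr12 clusters (x axis, Mb from the start of each cluster), with 1 row per KZFP, colour for the fold enrichment over input on a log scale, grey bands for assembly gaps and green bars for zinc finger genes. Columns of points at the same position are regions shared by several KZFPs, up to 8 in the Chr12 cluster, where only 2 zinc finger genes are annotated.

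Of the 42 KZFPs, 31 had at least 1 peak inside the clusters, 16 had 5 or more, and 11 had none. Zfp_MB026 had 51 of its 4105 peaks inside, 1.24% with an exact 95% binomial interval of 0.926% to 1.63%. Zfp982 followed with 33 of 4745 (0.695%, 0.479% to 0.975%) and Zfp_MB016 with 25 of 6170 (0.405%, 0.262% to 0.598%). These 3 lists gave 109 of the members, or 43.8%. The intervals cover counting error only.

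Measured against the size of the list, other KZFPs led. Zfp6003 had 8 of 74 peaks inside (10.8%, 4.78% to 20.2%), Zfp268 2 of 21 (9.52%, 1.17% to 30.4%), Zfp6001 7 of 102 (6.86%), Zfp6002 7 of 113 (6.19%), Zfp_MB031 6 of 123 (4.88%) and Zfp_MB035 19 of 456 (4.17%, 2.53% to 6.43%). For 17 KZFPs the whole interval lay above the 0.452% of sequence that the clusters make up, and for 0 it lay below. Zfp_MB016, the longest list, was among those whose interval included it. Short lists could not lie below, since even with 0 members the interval of Zfp988 reached 2.01% for its 182 peaks. The 17 are not separate observations either, since KZFPs that share an array or a region are among them. In 5 lists the highest peak anywhere in the genome was a member: those of Zfp6001, Zfp6002, Zfp6003, Zfp_MB035 and Zfp268.

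**Figure D2:**
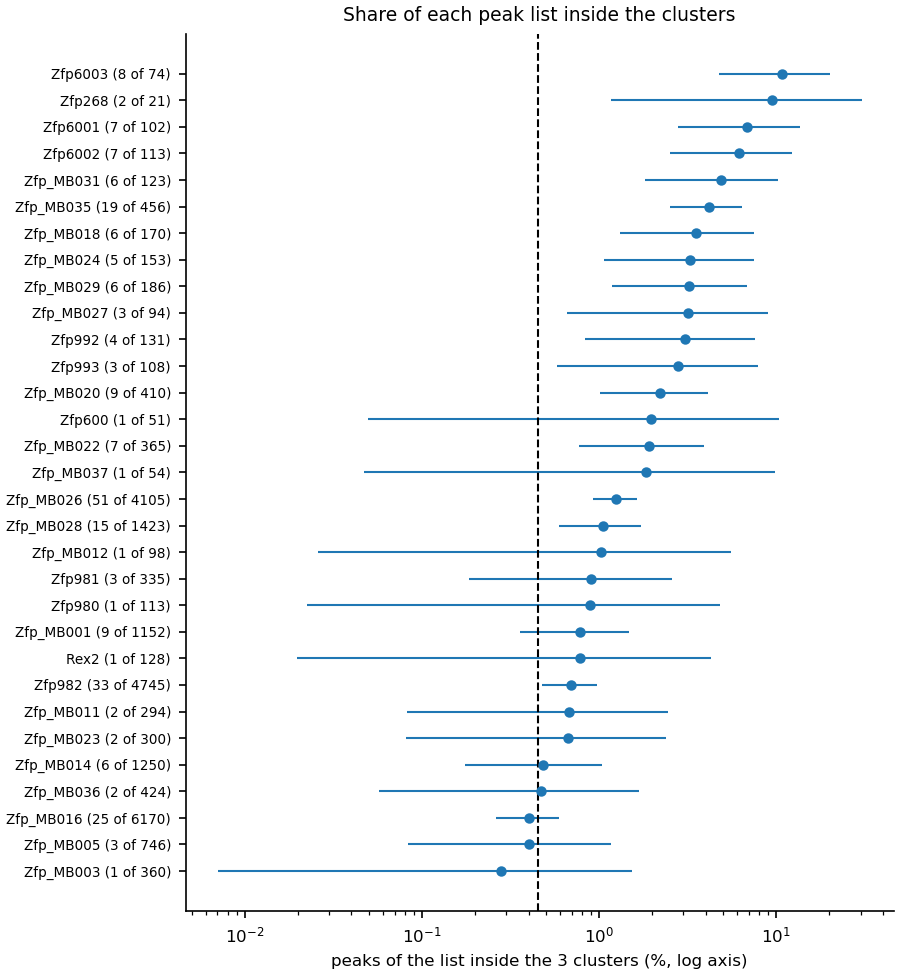
Share of each KZFP's peaks inside the 3 clusters (x axis, percent on a log scale) for the 31 KZFPs with at least 1 member, with exact 95% binomial intervals as bars and the clusters' 0.452% share of the sequence as the dashed line. The shares run from 0.278% for Zfp_MB003 to 10.8% for Zfp6003, and most points lie to the right of the line. KZFPs without a member are not drawn, and in a short list 1 member is enough to pass the line (1 of 54 for Zfp_MB037). The side on which such points lie is therefore not a result.

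The 11 KZFPs without a member were Gm21411, Zfp978, Zfp979, Zfp986, Zfp988, Zfp_MB004, Zfp_MB010, Zfp_MB013, Zfp_MB015, Zfp_MB021 and Zfp_MB025. Their lists held 24 to 182 peaks, so a count of 0 allows shares of up to 1.65% for Zfp988 and up to 12.5% for Zfp978, and a share like that of the whole sequence was not detectable at this size. Gm21411, which has the fingerprint array of Zfp_MB028, had 0 of 90 peaks inside, which allows up to 4.02%. Zfp_MB028 had 15 of 1423 (1.05%).

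The clusters drew on different KZFPs. Members of the Chr12 cluster came from 27 KZFPs, of which 15 had members there only, those of the Chr4 cluster from 14 and those of the Chr2 cluster from 9. The 7 KZFPs with members in all 3 clusters were Zfp982, Zfp_MB001, Zfp_MB016, Zfp_MB020, Zfp_MB022, Zfp_MB026 and Zfp_MB028. Zfp_MB026 placed 42 of its 51 on Chr12, 5 on Chr4 and 4 on Chr2. Zfp_MB035 placed 12 on Chr12, 7 on Chr4 and 0 on Chr2.

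The 16 KZFPs with 5 or more members were compared between clusters by their peaks per Mb outside gaps. The mean density was 1.39 per Mb in the Chr12 cluster, 1.24 in the Chr4 cluster and 0.498 in the Chr2 cluster. Chr2 minus Chr4 was -0.737 per Mb on average (SD 1.11), lower for 10 KZFPs, higher for 1 and equal for 5 (two-sided exact sign-flip permutation test, p = 0.00391, 0.0107 after Benjamini-Hochberg adjustment over 11 comparisons). Chr12 was higher than Chr2 by 0.890 per Mb (SD 1.28), higher for 13 of 16 KZFPs (exact p = 0.00348, adjusted 0.0107). Chr12 and Chr4 did not differ beyond the spread between KZFPs (0.153 per Mb, SD 1.41, higher for 8 of 16, exact p = 0.709). KZFPs that share an array or a region are not independent, so these p-values describe the spread over these libraries. The KZFPs were also admitted by their members in the 3 clusters together, the same counts that are compared here. Zfp6001, Zfp6002, Zfp6003, Zfp_MB014 and Zfp_MB018 passed through Chr12 alone, so each had to be higher there than on Chr2 and Chr4. The tests therefore cannot show that KZFPs in general favour a cluster. Within batch 4, which holds 10 of the 16 KZFPs, Chr2 minus Chr4 was -0.527 (exact p = 0.0156, 0.0469 adjusted over the 3 comparisons of clusters), and Chr12 exceeded Chr2 by 0.649 (exact p = 0.188, adjusted 0.281). With peaks of 15-fold or more only, these calls were lost for Chr2 against Chr4 (a difference of -0.482, exact p = 0.0938, adjusted over the 3 comparisons 0.141) and, after that adjustment only, for Chr12 against Chr2 (0.782, exact p = 0.0352, adjusted 0.105).

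The same 16 KZFPs were used to ask how members differ from the other peaks of their own list. Here too KZFPs that share an array or a region are not independent, so the p-values describe the spread over these libraries. Members had higher enrichment. The median log2 fold enrichment was 4.38 inside and 4.00 outside on average, a difference of 0.37 (SD 0.465), and it was higher inside for 12 of 16 KZFPs (exact sign-flip permutation test, p = 0.00711, adjusted 0.0156). Within batch 4 the difference was 0.32 (exact p = 0.0410). With 1 value per fingerprint array it was 0.27 over 12 arrays and the call was lost (exact p = 0.0562).

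More members sat on sequence that the genome holds more than once. Members were picked by position in clusters that are themselves repeated sequence. How much of the cluster sequence outside peaks has an exact copy was not measured. The values below therefore do not set the bound places apart from the rest of the clusters. Of all peaks on chromosomes, 26.8% had 100 bp around the summit with an exact copy elsewhere in the assembly, and among members this was so for 127 of 249, or 51%. Over the 16 KZFPs the share was 59.9% inside and 19.9% outside, a difference of 40.0 percentage points (SD 21.3), higher inside for 15 of 16 (exact sign-flip permutation test, p = 6.10e-05, adjusted 3.36e-04). Zfp_MB022 was the exception, with 14.3% inside and 19.8% outside. The shares of Zfp_MB018 were 15.9% of 164 peaks outside and 83.3% of 6 inside, and those of Zfp_MB020 were 0.499% of 401 and 44.4% of 9. All 15 members of Zfp_MB028 had an exact copy, against 67% of its other peaks. Within batch 4 the difference was 34.1 points (exact p = 0.00391). The KZFPs are not separate observations here. Zfp6001, Zfp6002, Zfp6003, Zfp_MB018 and Zfp_MB035 had 35 members on the same 8 copies on Chr12. Taking 1 value per array does not remove this overlap, since these KZFPs have different arrays in part.

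Most of these exact copies were neighbours. Of the 127 members, 106 had a copy in the same cluster, for 96 every copy was there, 6 had a copy in another of the 3 clusters and 31 had a copy elsewhere in the genome. The median number of positions with the same 100 bp was 2 and the highest 521, at a Zfp_MB028 peak in the Chr12 cluster.

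Members also met KZFPs of other arrays. Of all peaks on chromosomes, 22.4% overlapped a peak of a KZFP with another fingerprint array, and of the members 84 of 249 did (33.7%): 38.4% on Chr12, 31.4% on Chr4 and 7.69% on Chr2. Over the 16 KZFPs the share was 46.8% inside and 35.9% outside, a difference of 10.9 points (SD 16.2), higher for 11 of 16 (exact sign-flip permutation test, p = 0.0172, adjusted 0.0316). This call was lost within batch 4 (7.14 points, exact p = 0.176) and with 1 value per array (8.93 points, exact p = 0.101).

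The share of peaks with the KZFP's own motif did not differ between inside and outside beyond the spread (43.6% and 30.9%, a difference of 12.7 points, SD 29.7, higher for 8 of 16, exact sign-flip permutation test, p = 0.113). Over all peaks of lists with a motif it was 29.5%, and over members 91 of 248, or 36.7%. The KZFPs went in opposite directions. Zfp6002 had its motif in 100% of 7 members and 17% of 106 other peaks, and Zfp_MB018 in 66.7% of 6 and 0.610% of 164. Zfp_MB035 had its motif in 5.26% of 19 members and 18.3% of 437 other peaks. The motifs were derived from these same lists. All 7 members of Zfp6002 and all 6 of Zfp_MB018 lay on copies of the first set. Their motifs may thus largely repeat the letters of the members, and these contrasts are not independent evidence of a difference.

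**Figure D3:**
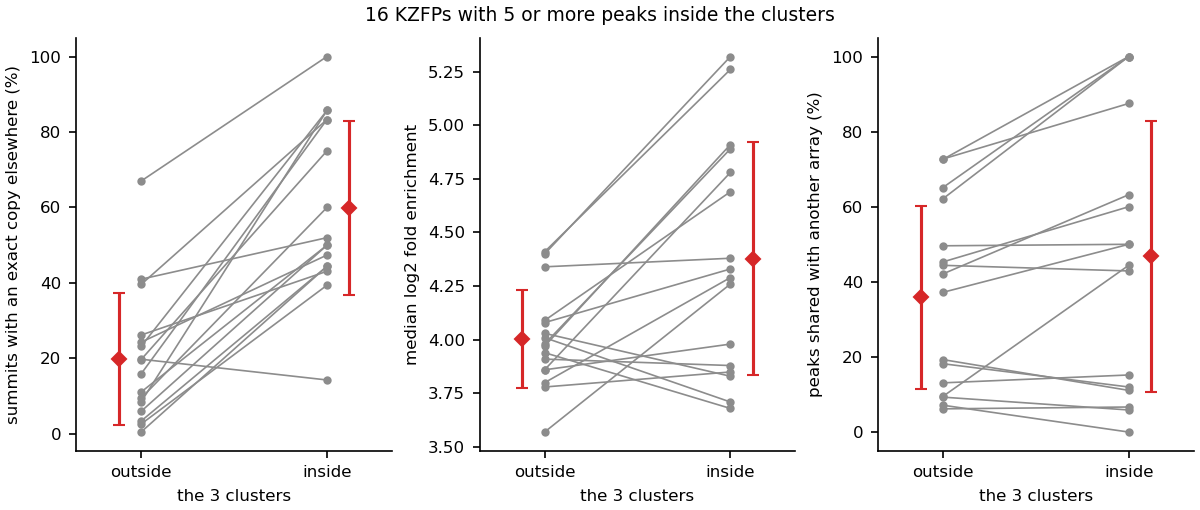
The 16 KZFPs with 5 or more members, each drawn as a grey line from its peaks outside to its peaks inside the clusters, with mean and SD in red. The panels show the percentage of summits with an exact copy elsewhere (means 19.9% and 59.9%), the median log2 fold enrichment (4.00 and 4.38) and the percentage of peaks shared with a KZFP of another array (35.9% and 46.8%).

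None of the 249 summits lay in an exon away from a promoter. Outside the clusters the 16 KZFPs had 4.26% of summits in exons, a difference of -4.26 points (SD 1.87) that held for 16 of 16 KZFPs (exact sign-flip permutation test, p = 3.05e-05, the smallest it can give, adjusted 3.36e-04). A share of 0 is the lowest possible and every list had exon peaks outside, so each difference had to be negative. Most lists had few members, for which 0 in exons is a likely count at such shares. The test therefore cannot show that exons were avoided. Exons take up 4.02% of the bases inside and 4.42% outside. The shares in introns (36.1% inside, 33.2% outside, exact p = 0.552) and in intergenic sequence (53.0% and 44.4%, exact p = 0.135) did not differ beyond the spread. Promoters, within 1000 bp of a transcription start, held 27.0% of all peaks and 40 of 249 members (16.1%). Over the 16 KZFPs their share was 10.9% inside and 18.2% outside (-7.37 points, SD 14.7, lower for 13 of 16, exact p = 0.0625, adjusted over 11 comparisons 0.0982 and over the 4 classes 0.125). It passed the threshold without Zfp_MB014 (-9.36 points, exact p = 0.0119, adjusted over the 4 classes 0.0238) or without Zfp_MB022 (-9.17, exact p = 0.0165, adjusted 0.0330).

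The starts behind the 40 promoter members were mostly not those of coding genes. In the Chr12 cluster 14 belonged to pseudogenes, 8 to lncRNAs and 2 to coding genes. The coding starts were that of Ywhaq, a 14-3-3 adaptor protein gene (Zfp_MB003, fold 5.08, 8 bp away), and that of the zinc finger gene 9030624G23Rik (Zfp_MB026, fold 10.6, 918 bp away). In the Chr4 cluster 5 were of pseudogenes, 8 of lncRNAs and 1 of a coding gene, Zfp991, where Zfp982 had a peak of fold 11.3 at 21 bp. The 2 in the Chr2 cluster were lncRNA starts, with Zfp_MB022 peaks of fold 12.6 and 10.7, and the summit of the first also lay within the gene Zfp972.

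After overlapping members were merged, the clusters held 179 regions, of which 152 were bound by 1 KZFP and 27 by 2 or more. Of the 27, 19 were on Chr12, 7 on Chr4 and 1 on Chr2, and 23 joined KZFPs of different arrays. The highest number of KZFPs in a region was 8 on Chr12, 6 on Chr4 and 2 on Chr2.

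The 3 regions with the most KZFPs on Chr12 are copies of the second sequence set. At chr12:24421970-24423151, intergenic and 5179 bp from Gm47478, Zfp_MB029 had a fold enrichment of 111, Zfp_MB024 of 73.2, Zfp_MB031 of 63.1, Zfp993 of 56.6, Zfp_MB027 of 56.4 and Zfp992 of 51.4. These are the 6 KZFPs of 1 fingerprint array. Zfp_MB005 (16.6) and Zfp_MB022 (14.8), of other arrays, had lower peaks there. The same 8 KZFPs met at chr12:20878838-20879940, where the fold was 61.6 for Zfp_MB029 and 12 for Zfp992. At chr12:18424557-18425472 the 6 KZFPs of the array had peaks, with 67.8 for Zfp_MB029 and 14.9 for Zfp992, and no other KZFP did. With summits within 50 bp required, these regions held 7, 7 and 6 KZFPs.

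The stretch differs among these copies. The copy at 24422648 holds the motifs of Zfp_MB029 and Zfp_MB031, and so does that at 20879269. The copy at 18425029, with C29A, holds the motif of Zfp_MB031 only, and Zfp_MB029 had a fold of 67.8 there against 61.6 at 20879269. The Chr4 copies, which carry A3G C20T G25A, hold neither. Of these 4 copies with the same stretch, 3 had peaks: Zfp_MB029 had 23.8 at 145561694, 20 at 146260602 and 16.3 at 147270219, all below its 3 peaks on Chr12. The fourth, at 146557695, had no peak of any KZFP. Zfp992, Zfp993 and Zfp_MB027 had no member in the Chr4 cluster.

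The Chr4 region with the most KZFPs was the first of these copies, chr4:145561624-145562211 in an intron of Gm13236. It was bound by Zfp_MB029 (23.8), Zfp_MB031 (15.3), Zfp_MB024 (14), Zfp_MB035 (13.4), Zfp_MB022 (10.9) and Zfp_MB037 (10.5), which have 4 arrays. With summits within 50 bp required, it held 3 KZFPs. At chr4:146260296-146260947, 38975 bp from Gm13166, Zfp_MB029, Zfp_MB024 (15.0) and Zfp_MB031 (13.9) met, all of the same array.

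The first sequence set carries the highest members of Zfp_MB035, Zfp6001, Zfp6002, Zfp6003 and Zfp_MB018. Its 11 copies lie on Chr12 (10) and Chr4 (1), and 8 of them, all on Chr12, had a peak of at least 1 of Zfp_MB035, Zfp6001, Zfp6002, Zfp6003 and Zfp_MB018. These gave 35 members, and the windows around them had 12 to 18 similar copies outside the clusters. Zfp_MB035 had a peak on all 8 copies. Zfp6001, Zfp6002 and Zfp6003 had peaks on 7 of them, and Zfp_MB018 on 6.

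Enrichment differed between forms of the stretch. Zfp_MB035 reached folds of 283 and 249 on the copies with G24A (22731607 and 24077425), and 189 and 155 on the copies with the reference stretch (19593481 and 20178625). On the copies with G32A it had 132 at 20833320 and 46.7 at 21695146, and on those with G8C T10C G16A G32A it had 47.7 and 52.2. The groups of 4 copies did not overlap: 155 to 283 where base 32 is G, and 46.7 to 132 where it is A. The copies were chosen with their folds known, and other bases of the copies differ as well, so no test was made.

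The folds of Zfp6001 were lower throughout, with 79.2 and 29.6 on the reference stretch, 44.1 and 69.9 with G24A, 19.9 and no peak with G32A, and 14.5 and 17.9 with the form that lacks its motif. Zfp6002 ran from 90.1 to 14.5, and Zfp6003 from 85.4 to 14.2. Zfp_MB018 had folds of 22.4, 17, 22.5 and 21.7 on the first 4 copies, no peak and 14.2 with G32A, and no peak and 11.6 on the last form. Copies without any peak were 18228121, which holds the motifs of Zfp6001 and Zfp6002, and 20283127 and the Chr4 copy 146418190, which hold neither.

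**Figure D4:**
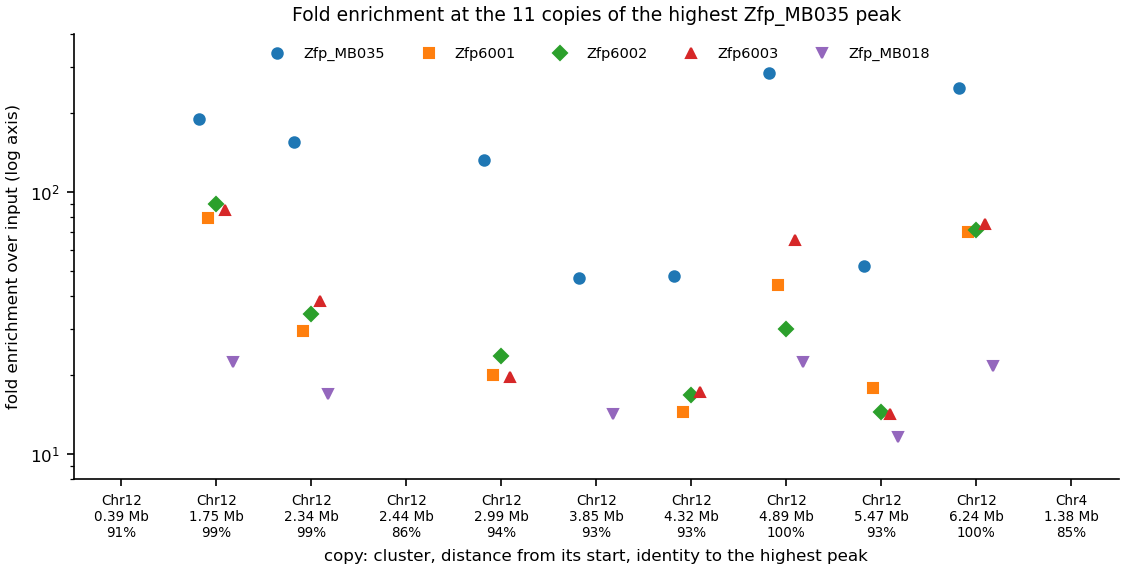
Fold enrichment over input (y axis, log scale) at the 11 copies of the sequence under the highest Zfp_MB035 peak, ordered by cluster and position, with the identity of each copy to that sequence under the axis and 1 symbol per KZFP. A copy without a symbol for a KZFP had no peak of it, and the 4 copies with 99% or 100% identity carry the 4 highest Zfp_MB035 peaks, 155 to 283.

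These peaks fell in annotated genes in 4 places. The copy at 19593481 lies in an intron of the pseudogene Gm6943, that at 20178625 in an intron of Gm9265, that at 23316696 in an intron of Gm20472, and that at 24077425 in an intron of 9030624G23Rik, a gene with 13 C2H2 fingers. The other copies with peaks are intergenic, such as 22731607, which is 10525 bp from Gm48033 and holds the highest Zfp_MB035 peak.

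Most members of Zfp_MB026 fell into 2 kinds. The first lay on the sequence of the third set and its relatives, with a median of 1600 similar copies outside the clusters, where 12 of its 51 members lay and 10 held the motif exactly. Its highest members were on Chr2, with folds of 239 at 176929274 and 179 at 177239472. On Chr12 the same stretch had 142 at 18011268 and 82.5 at 18181706, and a copy with G1C had 13.6. The copies with G7A G18A G39A, which have 1 mismatch to the motif, had 45.1 and 153.

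The stretch with T29G A32T A38C keeps the motif whole but had low peaks or none. Its 6 copies had folds of 17.5 (chr12:24446935), 10.8 (chr2:174827239) and 12.5 (chr4:145613948), and no peak at the other 3. The copy that adds G25A, which breaks the motif, had no peak. Of the other 8 copies all had a peak, 13.6 to 239, so of these 8 only the copy with 13.6 lay within the range of the first 3. The 100 bp around the summit occur at 428 positions of the genome for the peak of 10.8, at 217 for that of 17.5 and at 30 for that of 12.5, against 1 for that of 239, and the part of read placement in these folds was not tested.

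The second kind lay on sequences without similar copies outside the clusters. Of the 51 members, 31 had similar copies (at least 150 of 300 bp at 80% identity) in the clusters and nowhere else. Of the 31, 30 fell into 3 repeats of the Chr12 cluster, called A, B and C here, and 1 was on Chr4 (146690523, fold 20.3). The members of neither kind had folds of 11.8 to 57.9. Repeat A had 47 copies with a median spacing of 123 kb, and Zfp_MB026 had a peak on 18 of them (38.3%) with folds of 10.3 to 96.1 and a median of 26.5. Repeat B had 41 copies 128 kb apart, 8 with a peak (19.5%) of 10.6 to 48.2. Repeat C had 38 copies 137 kb apart, 4 with a peak (10.5%) of 11.3 to 25.8.

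None of these 30 peaks held the motif of Zfp_MB026, and the nearest match had 5 or 6 mismatches of 15 bases. Of the 8 peaks on repeat B, 7 were in promoters of pseudogenes, lncRNAs or 9030624G23Rik, 659 to 961 bp from the start. The peaks on repeat A were intergenic in 14 of 18 cases.

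**Figure D5:**
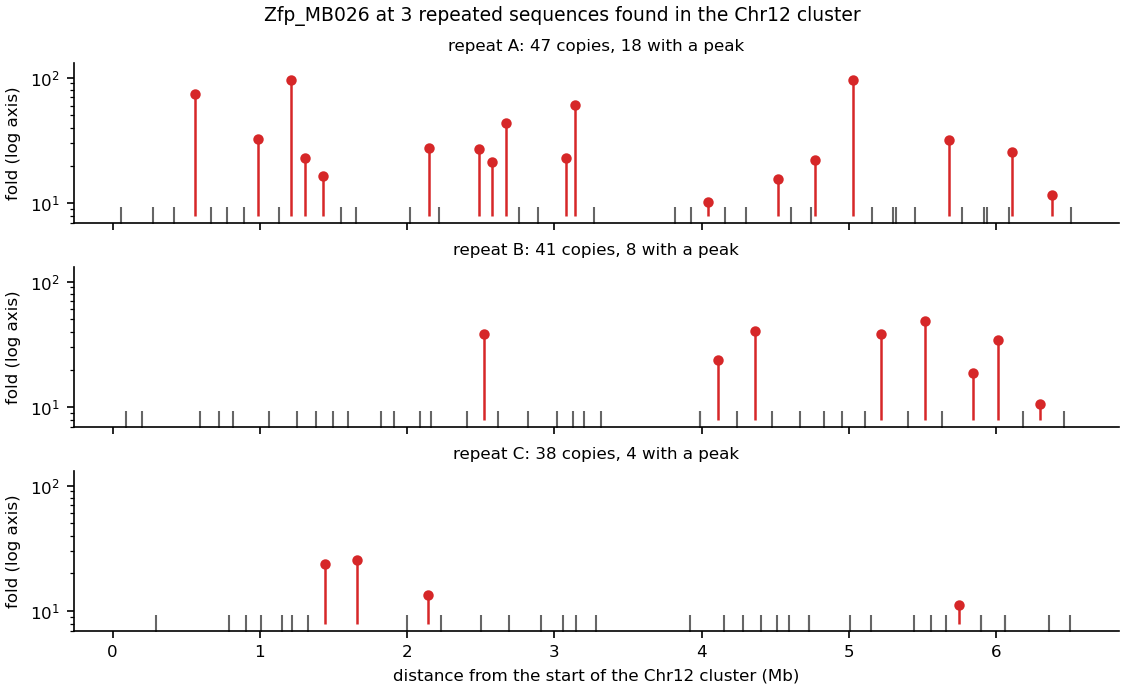
Copies of repeats A, B and C along the Chr12 cluster (x axis, Mb from its start), with a short tick for a copy without a peak and a red stem for the fold enrichment of Zfp_MB026 where it had a peak (y axis, log scale). Of 47, 41 and 38 copies, 18, 8 and 4 had a peak, the peaks on repeat A spread over the cluster, and those on repeat B all lie 2.52 Mb or more from its start.

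Of the 15 members of Zfp_MB028, 11 held its motif, and 13 lay on the fourth sequence set, with a median of 1814 similar copies outside the clusters. Its highest member, fold 27.2, was in an intron of Zfp982. Of the 8 copies with the reference stretch, 7 had a peak (10.7 to 27.2) and 1 did not (19760298). Copies with C16T, at chr2:176932995 and chr2:177243190, had peaks of 14 and 20.2 without the exact motif. Of the 5 copies with T8C 4 had a peak, 10.7 to 17. The 4 copies with T8G A11G A26G A29T and the 2 with T8G A26G A29T hold the motif and had none.

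Where members of Zfp_MB026 and Zfp_MB028 lay near each other, most kept a similar distance. Most of the 51 members of Zfp_MB026 had no such partner among the 15 of Zfp_MB028. The distance was not measured for peaks outside the clusters. There were 12 pairs of these 2 KZFPs within 10 kb. In 10 of the pairs the summits were 3636 to 3750 bp apart, with 5 pairs on Chr12, 3 on Chr2 and 2 on Chr4. The other 2, at 306 and 6994 bp, were on Chr4. Zfp_MB016 lay close by in several places: 10 Zfp_MB026 and Zfp_MB016 pairs were 1061 to 1572 or 5432 to 5645 bp apart, and 7 Zfp_MB028 and Zfp_MB016 pairs were 1772 to 1991 or 4920 to 5044 bp apart. At chr2:176929315 the order was Zfp_MB026 (239), Zfp_MB028 (14) 3640 bp on and Zfp_MB016 (25.1) 5631 bp on. The same order stood at chr2:177239506, with 179, 20.2 and 22.8, and at chr12:23252351, with 153, 12 and 29.5.

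Zfp_MB016 had 25 members, 15 on Chr12 and 5 each on Chr4 and Chr2, and 22 of them were intergenic. Of the 25, 20 formed a chain of similar sequences, each with 3962 to 6986 similar copies outside the clusters, and 14 of the 20 held its motif. Its highest member, fold 51.5, was at chr12:22092204, 1181 bp from Gm54485. On Chr4 its peaks of 15.3 and 32.9 were in introns of Zfp268 and Zfp981. At chr2:174883501-174884431, the only Chr2 region with 2 KZFPs, it had 15.2 and Zfp_MB036 had 10.6, with summits more than 50 bp apart.

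Zfp982 bound the Chr4 cluster through other sequence than the Chr2 and Chr12 clusters. Its 3 Chr2 peaks and 12 of its 19 Chr12 peaks formed a chain, in which each peak lay on sequence similar to at least 1 other. They were not all copies of the same sequence. The 300 bp window of the highest had 28 similar copies in the clusters, 27 on Chr12, 1 on Chr4 and 0 on Chr2. Zfp982 had a peak on 9 of these copies. In the Chr2 cluster it had 3 peaks, each with its motif (AGACCCTCTGG, in 3.99% of all summit windows), with folds of 28.7, 24.3 and 23.1 at intergenic places with 3 exact copies each. In the Chr12 cluster 8 of 19 peaks held the motif. Its highest peak there, 79.1 at 19069634, did not, and the other copies of that sequence with a peak had 11.2, 12.7 and 14.6. In the Chr4 cluster 0 of 11 peaks held the motif, with 3 or more mismatches in each.

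The Chr4 peaks of Zfp982 lay on GC-rich sequence, 71.0% to 80.3% GC in 300 bp, and 9 of the 11 were in promoters. Over the whole Zfp982 list, 55.9% of peaks were in promoters. The peaks fell into 3 groups of similar copies. One group, with folds of 15.8, 16 and 29.1 at 145472163, 146176341 and 146664900, resembled the start region of Ppp2r5a, a PP2A subunit gene, on chromosome 1 (88.7% to 89.2% identity). The start regions copied in it belong to the pseudogene Gm13244 and the lncRNAs Gm13165 and 1700095A21Rik. At the Ppp2r5a start Zfp982 had a peak of fold 12.8.

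The next group, at 145501198, 146199977, 146493100 and 147209418, resembled the start of Tlk2, a kinase gene on chromosome 11, at 90.5% to 94.1% identity. Zfp982 had 13, 11.9, 41.0 and 11.3 there and 11.6 at the Tlk2 start itself. Zfp_MB035 had peaks of 10.4 and 10.3 on these copies and of 11.2 on another, at 147527768, where Zfp982 had none. At Tlk2 it had 31.4. Zfp_MB011 had 1 peak on these copies (5.01, against 6.83 at Tlk2). Zfp_MB020 had 2 there (12.5 and 16.6) and none at Tlk2. Of the last group, folds 24.6, 18.3, 13 and 12.3, the peaks at 146559680 and 147017053 resembled the start of Cdv3 on chromosome 9 (88.5% and 87.5%), where Zfp982 had 15.3.

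In the Chr12 cluster Zfp982 had 3 peaks on another GC-rich repeat (up to 74% GC), which is found in the clusters only, with folds of 10.2 to 11. Zfp_MB016 (19.5) and Zfp_MB001 (14.7) each had 1 peak on it, and all 5 were in promoters of lncRNAs or pseudogenes. Of 38 copies, 4 had any peak by the Zfp_MB016 window. Zfp268 had its only 2 members, folds 16.3 and 10.3, on a repeat with a median of 73% GC and 43 copies in the Chr12 cluster and 0 outside, at starts of the pseudogenes Gm6802 and Gm49697.

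The other KZFPs with 5 or more members showed smaller patterns. Zfp_MB001 had 9 members, none with its motif, and 4 of them were on a Chr2 repeat with 68 copies there. Its peaks of 15.3, 15.4 and 23.7 were in introns of 2210418O10Rik, Gm14296 and Gm14418, and 14.5 was intergenic. A copy in an intron of Gm14322 (chr2:177408085-177408484) was 100% identical over 400 bp to the one with 23.7 and had no peak. Zfp_MB020 had peaks of 17.3 and 18.1 on 2 identical Chr2 copies, and the other 6 copies, at 90.4% identity at most, had none.

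Zfp_MB022 had its motif (TCATAAAACAGATAG, in 1.57% of all summit windows) in 4 of 7 members, in introns of Zfp990 (12.8) and Zfp268 (13.4) and at the 2 Chr2 starts. The other 3 were the shared regions named above. Zfp_MB014 had 6 members, all on Chr12, with folds of 10.5 to 29.8, of which 1 held its motif. One of them, 10.5, was in an intron of Asap2, an Arf GTPase activating protein gene.

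The 15 KZFPs with 1 to 4 members gave 30 peaks. Of these, 13 are in the regions of the second sequence set or next to it: Zfp992 had 3 of its 4 there, Zfp993 3 of 3, Zfp_MB027 3 of 3, Zfp_MB005 2 of 3, and Zfp981 and Zfp_MB037 1 each. Zfp_MB023 had 2, in introns of Zfp985 (26.2) and of Rex2, which overlaps Zfp989 (10.6). Zfp_MB036 had 2, Zfp_MB011 2 and Zfp268 2. Rex2, Zfp600, Zfp980, Zfp_MB003 and Zfp_MB012 had 1 each, with folds of 12.1, 5.30, 6.27, 5.08 and 10.5. Lists with folds near 5 had a lower cutoff than the others.

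Inside the Chr4 cluster the peaks were not gathered on the zinc finger genes. By annotation there are 20 coding genes with 3 or more C2H2 fingers, which cover 33.3% of the bases outside gaps, and 15 of 51 summits (29.4%) lay in them. In the Chr2 cluster 37 such genes cover 25.3% of bases and held 2 of 26 summits (7.69%), Zfp_MB001 in Gm14418 and Zfp_MB012 in Gm14325. The genes 2210418O10Rik, Gm14296 and Zfp972, which also held peaks, have fewer than 3 fingers in their annotated coding sequence and were not counted. In the Chr12 cluster, with 145 pseudogenes among 224 genes, only 2 such genes are annotated. They cover 2.04% of bases, and 8 of 172 summits (4.65%) lay in 1 of them, 9030624G23Rik.

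Of the assayed KZFPs, 12 have a gene under their own name among these Chr4 genes with 3 or more fingers. None of the 12 had a peak in its own gene. Genes under an assayed name with fewer annotated fingers were not examined. Of these KZFPs, Zfp986, Gm21411, Zfp988, Zfp978 and Zfp979 had 0 peaks in the clusters. Zfp268, Zfp980, Zfp600, Zfp992, Zfp981 and Rex2 had 1 to 4 each. Zfp982 had 33 over the 3 clusters, and its gene is 55.7 kb long. No expected count was computed, and with so few peaks a count of 0 does not show that own genes were avoided. Of the 12 genes, 5 held peaks of other KZFPs. The Zfp982 gene held 5, of Zfp_MB028 (27.2), Zfp_MB026 (51.2 and 12.1), Zfp_MB035 (17.2) and Zfp_MB001 (12.8). Zfp986 held 2 of Zfp_MB026 and 1 of Zfp_MB028, Zfp268 held 1 of Zfp_MB016 and 1 of Zfp_MB022, Zfp981 held 1 of Zfp982 and 1 of Zfp_MB016, and Rex2 held 1 of Zfp_MB023. All lay in introns or at a start, and Zfp980, Zfp600, Zfp992, Gm21411, Zfp988, Zfp978 and Zfp979 held none. Zfp986 and Gm21411 border assembly gaps, so part of them may be missing from GRCm39. Zfp993, which is not among the 12, is also named by the paper as having a zinc finger array cut short by gaps.

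Similar copies, as opposed to exact ones, were nearly general among members. They were searched for members only, so no share over all peaks or over the cluster sequence stands beside the counts below. These counts describe the members and are not shown to be a trait of bound places. Of 249 members, 244 had another copy in the clusters at 80% identity or more, 123 had over 100 copies outside them, and 4 were single in the genome. For 51 (20.5%) every copy was in the clusters, 44 of 172 on Chr12, 4 of 51 on Chr4 and 3 of 26 on Chr2. These were 31 of 51 for Zfp_MB026, 8 of 33 for Zfp982 and 6 of 9 for Zfp_MB001, and 0 for Zfp_MB035, Zfp6001, Zfp6002, Zfp6003, Zfp_MB029 and Zfp_MB031. The repeats were not compared with a transposable element annotation here.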

How the data were processed

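The peak lists were made by the authors. Paired reads of 100 bp were aligned to GRCm39 with BWA, 1 of equally good alignments was retained at random, and MACS2 called peaks in each library, with the batch's mixed input as the control. Peaks overlapping a peak of an empty vector control were removed, and cutoffs on q and on fold enrichment were applied. The submitters' processing notes name BWA, SAMtools 1.19, deepTools 3.5.4 and MACS2 2.2.7.1. The deposited fold enrichment is a ratio to input. The authors' files also hold −log10 p-values, −log10 q-values and a display score, which entered no result.

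Summits on chromosomes were classed with the GENCODE M39 annotation (promoter, then exon, intron, intergenic). Zinc finger genes are coding genes with 3 or more C2H2 fingers in the translated sequence. Fingerprint arrays and motifs (the motifs' letters only) came from the study's supplementary tables, and 4 KZFPs have no motif there. Similar copies were found with blastn 2.17.0 (300 bp windows, at least 150 bp at 80% identity) and copies of the highest peaks with 400 bp windows (at least 300 bp). Copies were aligned with MAFFT 7.526.

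Each list was 1 sample. KZFPs with 5 or more members and 5 or more other peaks were compared by two-sided exact sign-flip permutation over KZFPs, with Benjamini-Hochberg adjustment over 11 comparisons and a threshold of 0.05. The routines were tested on simulated data. The members, lists and sequence sets were chosen with earlier results of these data known. By rule, the regions named are the 5 with the most KZFPs in each cluster (ties by fold), with the highest peak of each KZFP with 5 or more members. Other peaks and copies named were chosen after their values were seen. Of the samples, 12 (4 empty vector controls, 5 inputs and 3 libraries of HGTC8 cells) were not analysed here. Alternatives were other minimum numbers of members, 1 value per array, a higher fold cutoff, 1 batch only, sharing by summits within 50 bp, and each KZFP left out in turn.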

Additional observations from a re-analysis of the deposited data

Results flagged for a closer look

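Of the 25012 peaks, 37 lay on scaffolds that are not placed on a chromosome, in the lists of 17 KZFPs, and entered no comparison. Zfp_MB016 had 13 of them, Zfp_MB021 had 5 and Zfp_MB035 had 3. Zfp_MB021 had no peak in the 3 clusters. Whether these scaffolds belong to the clusters was not tested, and no control library gives a background for them.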

How the results depend on the processing

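No paired analysis was possible because each KZFP has 1 library, so no replicate numbers join libraries, while the tests themselves compare values within each KZFP. Calls rest on p-values adjusted over the 3 comparisons of clusters and over the 4 classes. Raising the minimum to 10 members left 5 KZFPs, with which the exact test cannot go below 0.0625. The differences were then -1.57 peaks per Mb for Chr2 against Chr4, 1.85 for Chr12 against Chr2, 0.22 in log2 fold, and 24.2, 2.79 and -4.25 percentage points for exact copies, shared peaks and exons, all short of the threshold. A minimum of 3 members moved promoters (-7.39 points) and intergenic sequence (12.9) past it. With 1 value per array, fold (0.27) and shared peaks (8.93) lost their calls. With 15-fold or more in every list, 154 of 249 members were left, the density differences (-0.482 and 0.782) and shared peaks (8.36) lost their calls, and promoters (-12.8) gained one. Within batch 4, Chr12 against Chr2 (0.649) and shared peaks (7.14) lost theirs, and so did shared peaks with summits within 50 bp (9.55). All of these except the last also changed the number of KZFPs compared, and beyond that the cause was not tested. Within batch 3 fewer than 2 KZFPs qualified, so it was not run.

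Leaving out each KZFP in turn, an alternative chosen after seeing the data, gave -0.823 to -0.547 for Chr2 against Chr4, 0.625 to 1.01 for Chr12 against Chr2, -0.114 to 0.283 for Chr12 against Chr4, 0.340 to 0.420 for log2 fold, 37.5 to 43.0 for exact copies, 9.13 to 12.2 for shared peaks, 8.03 to 14.6 for the motif, -9.36 to -5.34 for promoters, -4.41 to -4.03 for exons, 0.808 to 5.31 for introns and 5.82 to 11.1 for intergenic sequence. Calls changed for promoters only. Merging regions by summits within 50 bp lowered the KZFPs at the Chr4 region of 6 to 3 and at the Chr2 region of 2 to 1. The number of peaks per list limits what a count of 0 shows.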
